A study of Mus musculus with 12 samples.

Results

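Forkhead (Fox), Sox and T-box (Tbx) transcription factors were examined in whole hearts of Salvador mutant and control mice at postnatal day 8. A gene was a member if its symbol in the platform annotation, in any case, was Fox plus 1 letter plus a number, Sox plus a number or Tbx plus a number. Foxj1, Foxm1 and the Tbxa symbols were left out. The rule gave 70 of the 17742 named genes, made up of 38 Fox, 19 Sox and 13 Tbx genes, read by 76 of 26423 probes. The gene annotated as Foxf1a carries a further letter and was not taken.

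The material fell into 2 groups of 2 biological samples, each sample hybridised to 3 technical arrays with Cy5-labelled amplified RNA. The first group carried the Salvador mutation, named Salv CKO in the labels, and the second was labelled Control and wild-type. All 4 samples were of the C57bl/6 X 129 hybrid background, at postnatal day 8, from whole heart, with no treatment named. The source label also calls the tissue embryonic, against the stage in the other labels. The sources used here do not name the Cre driver, the deleted stretch of the gene, or whether a sample was 1 heart or a pool.

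Fox, Sox and Tbx proteins bind DNA through a winged-helix forkhead domain, an HMG box and a T-box, in that order. In the heart, Tbx5 and Tbx20 activate chamber genes together with Nkx2-5 and Gata4, Tbx2 and Tbx3 repress the chamber program in the conduction system, and Sox7, Sox17 and Sox18 act in endothelium. FoxO factors are held out of the nucleus by insulin signalling through Akt and otherwise restrain growth. Salvador (Sav1) is the scaffold of the Hippo kinases, which restrain Yap1 and Wwtr1, and these co-activators reach DNA mainly through TEAD factors. The comparison asked which genes depend on that pathway in the young heart.

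Levels are given as log2(normalized intensity + 1), the mean of the 3 arrays of a sample. Probes differ in how brightly they bind, so a level is compared between samples and not between genes. Differences are Salv CKO minus Control on the same log2 scale, with the standard error (SE) from limma over 2 samples a group, and adjusted p-values run over all 26423 probes. The samples are labelled as biological replicates with no further word on their origin, so these p-values measure only the spread between the 4 samples. In whole-heart RNA, fewer cells of a type and less RNA per cell cannot be told apart.

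Sav1 had levels of 8.06 and 8.52 under the Salv CKO label, against 8.75 and 8.08 under the Control label. The groups overlapped, and it is not known here whether the probe lies in the deleted stretch, so every direction below is that of the labels alone. The difference was -0.12 ± 0.34 (SE). Leaving out Salv CKO 1 made it 0.110, and leaving out Control 1 made it 0.213. Over all probes limma called 0 at an adjusted p of 0.05, and 1047 had an unadjusted p under 0.05. Heart muscle markers were bright in all samples, with the 5 measured of 11 listed at levels from 14.18 to 15.62. Other marker lists varied between the samples. For 7 lung genes the normalized intensities summed to 2230 and 326 in the Salv CKO samples, against 370 and 5804 in the Control samples. For 7 brown fat and adipocyte genes the sums were 8286 and 3907 in Salv CKO, against 12215 and 8909 in Control, where 0 of the 7 had a difference above 0 and the median was -1.02. What part these tissues have in the members' values was not tested.

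The 3 promoters below are shown because the Yap1 and Wwtr1 co-activators act through TEAD factors, and because these members, picked by hand as examples from the 8 with a match, hold the TEAD core motif GGAATG, or CATTCC on the opposite strand. Each runs 5′ to 3′ on the gene's strand from 250 bases before to 50 bases after the annotated start, from RefSeq on build GRCm38.p6. The motif is in capitals. The Sox4 promoter lies at chr13:28953650-28953949 on the minus strand, that of Foxp1 at chr6:99520944-99521243 on the minus strand, and that of Foxo3 at chr10:42276646-42276945 on the minus strand.
Sox4: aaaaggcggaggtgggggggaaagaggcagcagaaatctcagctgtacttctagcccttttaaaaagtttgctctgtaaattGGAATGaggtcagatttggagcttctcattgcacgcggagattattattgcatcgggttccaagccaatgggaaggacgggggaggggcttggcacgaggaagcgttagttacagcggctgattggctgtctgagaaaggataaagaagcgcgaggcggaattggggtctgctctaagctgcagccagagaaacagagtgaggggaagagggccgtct
Foxp1: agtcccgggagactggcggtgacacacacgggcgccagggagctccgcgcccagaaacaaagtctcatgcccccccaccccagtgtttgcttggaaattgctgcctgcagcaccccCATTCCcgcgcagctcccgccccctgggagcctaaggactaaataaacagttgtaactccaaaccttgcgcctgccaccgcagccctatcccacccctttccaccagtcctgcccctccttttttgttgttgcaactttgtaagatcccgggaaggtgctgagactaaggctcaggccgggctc
Foxo3: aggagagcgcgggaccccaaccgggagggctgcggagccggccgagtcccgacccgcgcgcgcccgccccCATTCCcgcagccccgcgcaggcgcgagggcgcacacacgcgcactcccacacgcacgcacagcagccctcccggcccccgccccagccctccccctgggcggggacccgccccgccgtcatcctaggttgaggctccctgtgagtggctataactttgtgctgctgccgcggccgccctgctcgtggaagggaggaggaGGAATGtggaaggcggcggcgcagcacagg

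The motif began 168 bases before the start in Sox4 and 134 bases before it in Foxp1, and in Foxo3 both 180 bases before and 20 bases after the start. A promoter sequence was matched for 49 of the 70 members, and 8 of these genes, or 16.3%, held the motif on either strand in at least 1 window. Among all 27025 genes with a promoter in the table the share was 16.6%, so the members' share lay at that of all promoters. The members with the motif had a median difference of -0.07, and the 41 without it one of -0.04. A match in these letters is a description of the window and not a binding site.

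None of the 70 members was called between Salv CKO and Control (limma, adjusted p at least 0.999), where 0.0% of all genes were called. An unadjusted p under 0.05 was reached by 2 members, Foxa2 and Sox8, against 3.31% of all genes. The median difference of the members was -0.042, and that of all genes was -0.020. Differences above 0 were seen in 28 members, or 40.0%, against 46.9% of all genes. This split depended on the scaling, since 37 of the 70 were above 0 after scaling to the 75th percentile and 46 without normalization, where the median of all genes itself moved to 0.081. The groups did not overlap for 20 members, 10 with Salv CKO above and 10 with Salv CKO below, against 30.7% of all genes.

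The members were read at different brightness. On all 12 arrays 12 members lay above the array's 75th percentile, called bright here, and 29 lay below its median, called dim. Dim probes made up 41.4% of the members and 35.0% of all genes, and bright ones 17.1% and 27.7%. The dim members had mean deposited intensities from 1.75 to 40.0, with single arrays from -6 to 68. Their median SD was 0.503 between technical arrays and 0.412 between samples of one group. In the bright members these medians were 0.0613 and 0.26. Differences of more than 1 in size were seen in 3 members (Foxa1, Sox8 and Tbx2), all dim, against 2.31% of all genes.

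**Figure D1:**
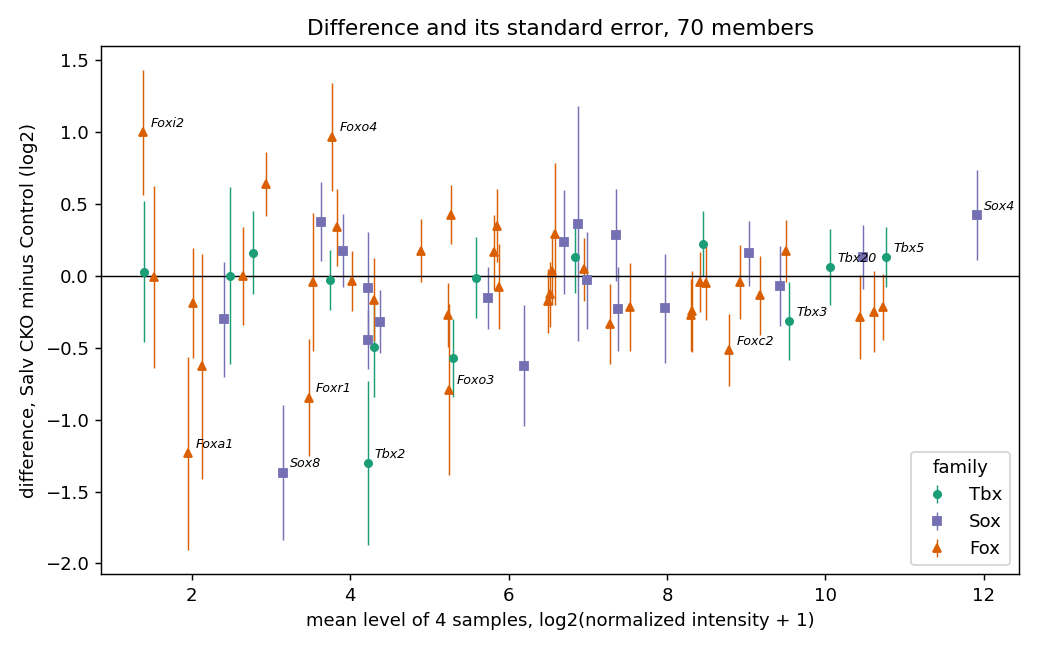
Difference, Salv CKO minus Control (log2), against the mean level of the 4 samples for each of the 70 members, with bars of 1 SE from limma (2 samples a group). Circles are Tbx, squares Sox and triangles Fox genes. The differences beyond 1 in size are those of dim genes, and the 12 bright members lie between -0.32 and 0.42.

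Among the T-box genes, the chamber activators Tbx5 and Tbx20 were bright. Tbx5 had levels of 10.90 and 10.77 in Salv CKO, against 10.72 and 10.68 in Control. Salv CKO lay above Control without overlap, by 0.13 ± 0.21 (SE, 95% interval -0.42 to 0.68), and the sign turned with median centring of the arrays (-0.056). Tbx20 had levels of 10.27 and 9.91 in Salv CKO, against 10.20 and 9.85 in Control. In each group the sample numbered 1 was the higher one, and the difference was 0.06 ± 0.26 (95% interval -0.63 to 0.75). It was -0.116 without Salv CKO 1, -0.112 without Control 2 and -0.123 with median centring.

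Tbx3, the repressor that keeps the conduction system from taking on chamber identity, had levels of 9.33 and 9.44 in Salv CKO, against 9.97 and 9.44 in Control. Control 1 alone was high, and the difference of -0.32 ± 0.27 (SE) was -0.051 without that sample. Tbx2, its close relative in the atrioventricular canal, was dim, with levels of 2.89 and 4.25 in Salv CKO against 5.31 and 4.43 in Control. Its deposited intensities averaged 7.0 and 21.0 in Salv CKO and 35.3 and 18.3 in Control, so Salv CKO 1 was low and Control 1 high. Its difference was -1.30 ± 0.57 (SE, unadjusted p = 0.076, adjusted p = 0.999, limma) and -0.684 at a pseudocount of 16.

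Tbx18, a factor of the epicardium and the sinus horns, was read by a pair of probes that disagreed. The brighter one gave 8.54 and 8.58 in Salv CKO, against 8.49 and 8.19 in Control, a difference of 0.22 ± 0.23 (SE). The other gave 8.19 and 8.22 in Salv CKO, against 8.94 and 7.90 in Control, a difference of -0.22 ± 0.40. The direction of Tbx18 is therefore not settled by these probes. The 6 epicardial markers had a median difference of -0.23, with Wt1 at 8.83 and 9.25 in Salv CKO against 9.74 and 9.36 in Control. They did not all go that way, since 2 of the 6 had a difference above 0. Both Salv CKO samples lay below both controls in 3 of them and above both in 1.

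The other T-box genes were dim or intermediate. Tbx1, which acts in the pharyngeal progenitors of the outflow tract, had deposited intensities of 7.0 and 4.0 in Salv CKO and 3.0 and 8.0 in Control, and its pair of probes gave differences of 0.00 ± 0.61 and -0.77 ± 0.47 (SE). Tbx6, a factor of the paraxial mesoderm, had levels of 5.04 and 4.98 in Salv CKO, against 5.85 and 5.31 in Control, a difference of -0.57 ± 0.27 (SE). Tbx15 had levels of 3.92 and 4.18 in Salv CKO, against 4.96 and 4.13 in Control. Tbx10 had levels of 7.13 and 6.69 in Salv CKO, against 6.85 and 6.70 in Control. Tbx19, a factor of the pituitary, had levels of 5.30 and 5.87 in Salv CKO, against 5.68 and 5.51 in Control. Both overlapped between the groups, with differences of 0.13 ± 0.26 for Tbx10 and -0.01 ± 0.28 for Tbx19. Over the 13 T-box genes 7 had a difference above 0, and the median was 0.003.

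**Figure D2:**
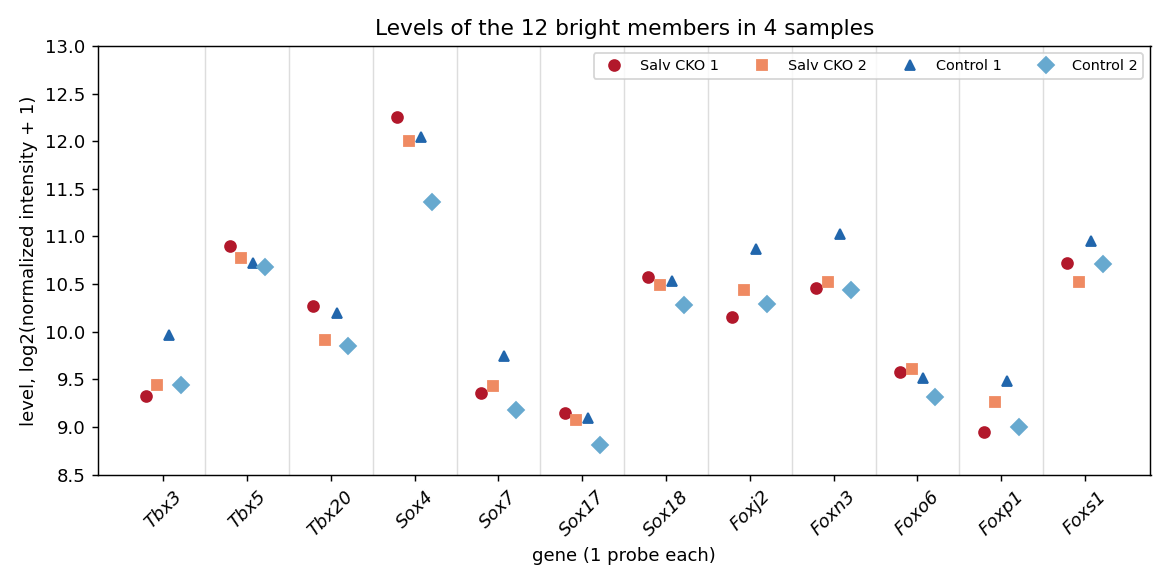
Levels of the 12 bright members, log2(normalized intensity + 1), in each of the 4 samples, where each point is the mean of 3 technical arrays. The y axis starts at 8.5. Only Tbx5 and Foxo6 have both Salv CKO samples above both controls, and in all 12 genes Control 1 lies above Control 2.

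The 3 endothelial Sox genes were bright, and their groups overlapped. Sox17, which acts in arterial endothelium, had levels of 9.15 and 9.07 in Salv CKO, against 9.09 and 8.81 in Control, a difference of 0.16 ± 0.22 (SE). Sox18, known for blood and lymphatic vessel development, had levels of 10.58 and 10.49 in Salv CKO, against 10.53 and 10.28 in Control. Its difference was 0.13 ± 0.22, and -0.051 with median centring. The 5 lymphatic endothelial markers measured had a median difference of 0.07. In Sox17 and Sox18 Control 2 was the lowest sample and the other 3 lay close together. Sox7 had levels of 9.36 and 9.43 in Salv CKO, against 9.75 and 9.18 in Control, and its difference of -0.07 ± 0.28 was 0.218 without Control 1.

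Endothelial partners and targets of these Sox factors were listed beside them. Of 12 measured genes, 2 had a difference above 0, and limma called 0, with 0 at an unadjusted p under 0.05. The median was -0.12. Cldn5, the tight junction gene of endothelium, had levels of 12.20 and 12.13 in Salv CKO, against 12.49 and 12.55 in Control, the lowest p of that list, with a difference of -0.36 ± 0.21 (SE). Dll4, the arterial Notch ligand, differed by -0.36 and Ephb4, a venous receptor, by -0.29. Without Control 1 these were -0.064 and -0.118. Cldn5 is also among 11 endothelial markers, whose summed normalized intensity was 39791 and 41097 in Salv CKO, against 44866 and 41212 in Control, and the part of that sum in these differences was not tested.

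Sox4, a factor of the outflow tract and of many growing tissues, had levels of 12.25 and 12 in Salv CKO, against 12.04 and 11.36 in Control. Control 2 was the low sample, with a mean deposited intensity of 2390, against 3990 and 4780 in Salv CKO and 4530 in Control 1. The difference of 0.42 ± 0.31 (SE, 95% interval -0.41 to 1.25) was the highest of the Sox genes. It was 0.083 without Control 2 and 0.760 without Control 1. Sox11, its relative in the same subgroup, was dim, at mean intensities of 2.33 and 6.67 in Salv CKO and 5.0 and 5.67 in Control.

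Sox9, known for cartilage and heart valves, had levels of 7.49 and 8.23 in Salv CKO, against 8.40 and 7.76 in Control. Each group held 1 high and 1 low sample, and the difference was -0.22 ± 0.38 (SE). Sox5 had levels of 7.34 and 7.20 in Salv CKO, against 7.80 and 7.19 in Control, with Control 1 high. Sox6, which acts with Sox5 in cartilage and also in muscle and red cell precursors, had levels of 6.57 and 7.06 in Salv CKO, against 6.19 and 6.97 in Control. Of 11 cartilage targets of these factors 7 were dim, among them Acan and Col2a1, and the median difference was -0.15. Limma called 0 of them, and 1 had an unadjusted p under 0.05, the dim Cnmd at 0.74 ± 0.22.

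Sox13 had levels of 5.59 and 6.18 in Salv CKO, against 6.99 and 6.03 in Control, and its difference of -0.62 ± 0.42 (SE) was -0.143 without Control 1. Sox15 had levels of 7.79 and 7.21 in Salv CKO, against 6.98 and 7.45 in Control. Sox8 was dim, with mean intensities of 3.33 and 7.33 in Salv CKO and 15.3 and 9.0 in Control, and 1 array of Salv CKO 1 was below 0. Its difference of -1.37 ± 0.47 had the smallest unadjusted p of the members (limma, unadjusted p = 0.0364, adjusted p = 0.999) and was -0.475 at a pseudocount of 16. Sox30 was dim as well, with levels of 4.03 and 3.98 in Salv CKO against 4.40 and 4.5 in Control.

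Sox10, a factor of neural crest and Schwann cells, had levels of 7.21 and 6.74 in Salv CKO, against 6.67 and 7.34 in Control. Its difference was -0.03 ± 0.34 (SE), and that of its dimmer probe was -0.40 ± 0.29. The summed normalized intensity of 7 Schwann cell and autonomic neuron markers was 1077 and 1038 in Salv CKO, against 814 and 1070 in Control. Control 1 was lowest in that sum and in the brighter Sox10 probe, whereas Salv CKO 1 was lowest in the dimmer probe (5.54 and 6.05 in Salv CKO, against 6.0 and 6.39 in Control) and in the median level of the markers (5.13 and 5.76 in Salv CKO, against 5.86 and 6.17 in Control). Their relation was not tested.

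Sox21 had the largest SD between samples (1.00) among the Sox genes that were not dim, and it parted the samples across the labels. Its levels were 7.98 and 6.15 in Salv CKO, against 5.92 and 7.48 in Control. Each of the arrays of Salv CKO 1 read 198 to 276 and those of Control 2 read 130 to 205, whereas Salv CKO 2 read 63 to 92 and Control 1 read 50 to 62. The difference of 0.36 ± 0.82 (SE) was -0.549 without Salv CKO 1 and -0.419 without Control 1. The same samples were high in airway genes. Scgb3a2, a secretory protein of the airway, had levels of 10.61 and 3.29 in Salv CKO against 4.02 and 11.55 in Control. Scgb1a1, the club cell protein, had levels of 8.14 and 4.07 in Salv CKO, against 3.68 and 11.19 in Control. Sftpd, a surfactant protein, had levels of 6.39 and 2.39 in Salv CKO, against 2.60 and 6.54 in Control. Of the 7 lung genes 3 were dim (Sftpa1, Sftpb and Sftpc), and Cldn18 lay between 8.00 and 8.25 in all samples. Sox2, a partner of Sox21 in airway epithelium and chosen here after its values were seen, was dim, and the same samples were high and low in it, with levels of 4.52 and 3.84 in Salv CKO against 3.88 and 4.65 in Control. The order was not particular to Sox21, since Sox10, Sox15, Foxb1, Foxb2 and Foxf2, also not dim, had it with smaller gaps. Some dim members had it too, among them Foxa1, with levels of 2.05 and 0.63 in Salv CKO against 1.91 and 3.24 in Control. Foxa2 and Foxf1, both dim, did not have it, and Control 2 was their lowest sample. Foxj1, left out by the rule, had Salv CKO 1 lowest and Control 1 highest. Its arrays ran from 6 to 1108 in Salv CKO 1 and from 21 to 424 in Control 2, so its order is uncertain. What part lung or airway RNA has in the Sox21 levels was not tested.

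**Figure D3:**
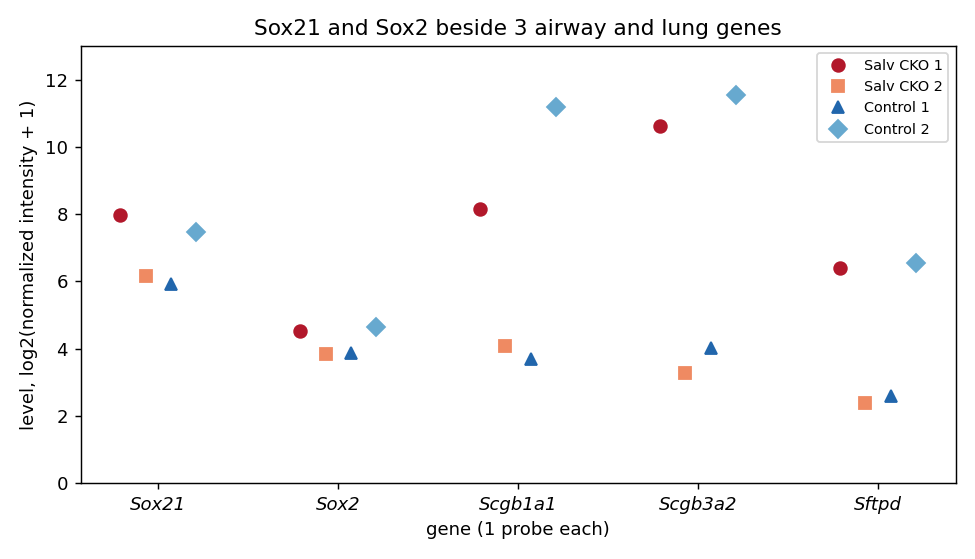
Levels of Sox21 and Sox2 beside Scgb1a1, Scgb3a2 and Sftpd, log2(normalized intensity + 1), in each of the 4 samples. In all 5 genes Salv CKO 1 and Control 2 lie above Salv CKO 2 and Control 1, so the pattern runs across the labels.

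Among the forkhead genes 13 of 38 had a difference above 0, with a median of -0.062, and 0 passed in limma, with 1 at an unadjusted p under 0.05. Foxc1 and Foxc2 pattern mesenchyme, valves and vessels. Foxc2 had levels of 8.33 and 8.73 in Salv CKO, against 9.15 and 8.94 in Control. It was the largest difference without overlap among the members that were not dim, at -0.51 ± 0.25 (SE, 95% interval -1.18 to 0.15), and it kept its sign without each sample in turn (-0.711 to -0.318). Foxc1 had levels of 8.02 and 8.32 in Salv CKO, against 8.60 and 8.28 in Control, so the groups overlapped, and differed by -0.27 ± 0.25.

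Of the 4 FoxO genes, 2 had a difference above 0. Foxo1, the main FoxO factor of vessels and metabolism, had levels of 7.96 and 8.42 in Salv CKO, against 8.61 and 8.26 in Control, a difference of -0.25 ± 0.28 (SE). Foxo3 had levels of 4.59 and 5.11 in Salv CKO, against 6.45 and 4.84 in Control. Control 1 alone was high in Foxo3, and the difference of -0.79 ± 0.59 was 0.013 without it. Foxo4 was dim, with levels of 3.79 and 4.73 in Salv CKO against 3.18 and 3.40 in Control. Its difference of 0.97 ± 0.38 (limma, unadjusted p = 0.0542, adjusted p = 0.999) was 0.476 at a pseudocount of 16. Foxo6 had levels of 9.58 and 9.61 in Salv CKO, against 9.52 and 9.32 in Control, a difference of 0.17 ± 0.21 without overlap. It was 0.006 with median centring and 0.070 without Control 2.

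Genes around FoxO were read from a pair of lists. Of 20 FoxO target genes, all measured, 11 had a difference above 0 and the median was 0.05, and 0 passed in limma, with 0 at an unadjusted p under 0.05. Bcl6, a repressor induced by FoxO, had levels of 9.57 and 9.31 in Salv CKO, against 10 and 9.91 in Control, a difference of -0.52 ± 0.22 (SE). The cycle inhibitor Cdkn1a and the muscle ubiquitin ligase Trim63 each differed by 0.28. Of 14 measured enzymes and regulators that act on FoxO, 6 had a difference above 0, the median was -0.05 and 1 had an unadjusted p under 0.05 (Crebbp, a dim probe, 0.78 ± 0.22), with 0 called by limma. Mdm2 differed by -0.29 and Pik3ca by -0.39, and without Control 1 by -0.122 and -0.164.

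Several broadly expressed forkhead genes were bright and high in Control 1. Foxn3, linked to the cell cycle checkpoint, had levels of 10.46 and 10.52 in Salv CKO, against 11.03 and 10.44 in Control. Foxj2 had levels of 10.15 and 10.44 in Salv CKO, against 10.87 and 10.29 in Control. Their differences of -0.25 ± 0.28 for Foxn3 and -0.29 ± 0.29 for Foxj2 (SE) were 0.044 and 0.005 without Control 1. Foxp1, known for a role in the growth of heart muscle cells, had levels of 8.95 and 9.26 in Salv CKO, against 9.48 and 9.0 in Control. The Foxp1 difference of -0.14 ± 0.28 was 0.103 without Control 1 and 0.019 without Salv CKO 1. Foxs1, a gene of neural crest derivatives and vessel walls, had levels of 10.72 and 10.52 in Salv CKO, against 10.95 and 10.71 in Control, and differed by -0.21 ± 0.23.

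Foxk1, a factor of muscle progenitors and of nutrient control, had an SD of 0.0515 over the 4 samples, with levels of 8.35 and 8.45 in Salv CKO against 8.47 and 8.41 in Control. Its difference was -0.04 ± 0.21 (SE, 95% interval -0.59 to 0.51). Foxj3 had levels of 8.67 and 9.12 in Salv CKO, against 9.02 and 8.85 in Control. Foxi1 had levels of 8.49 and 8.44 in Salv CKO, against 8.76 and 8.27 in Control. Foxp4, a relative of Foxp1, had levels of 6.47 and 6.65 in Salv CKO, against 6.69 and 6.37 in Control. In all 3 the groups overlapped, with differences of -0.04 ± 0.26 for Foxj3, -0.05 ± 0.26 for Foxi1 and 0.03 ± 0.24 for Foxp4. Foxf2, a gene of pericytes and mesenchyme, had levels of 6.76 and 6.69 in Salv CKO, against 5.75 and 7.12 in Control. In Foxf2 the arrays spanned 21 to 86 in Control 1 and 69 to 134 in Salv CKO 1. The difference of 0.29 ± 0.50 was -0.389 without Control 1 and 0.556 with the median of technical arrays. Foxp2 read at most 4 on every array of Salv CKO 1 and Control 1, and reached 101 on an array of Salv CKO 2 and on one of Control 2, so its difference of -0.63 ± 0.78 has no firm direction.

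Dim forkhead genes gave the remaining small p-values. Foxa2, an endoderm factor, had mean deposited intensities of 10 and 8.33 in Salv CKO and 5.33 and 5.33 in Control. Its difference of 0.64 ± 0.22 (SE; limma, unadjusted p = 0.039, adjusted p = 0.999) was 0.187 at a pseudocount of 16. With the median of technical arrays it was 0.291, and the arrays of Control 2 read from 1 to 9. Foxl1, a gene of gut mesenchyme, had levels of 5.48 and 5.48 in Salv CKO, against 5.02 and 5.09 in Control. Foxr1 had levels of 3.33 and 2.77 in Salv CKO, against 4.35 and 3.45 in Control, a difference of -0.85 ± 0.40. Foxi2 read at most 6 on any array, with mean intensities of 4.67 and 2.33 in Salv CKO and 0.333 and 1.67 in Control. Foxn1, Foxp3 and Sox3 were chosen after their values were seen, since they were not dim and their groups did not overlap, and differed by 0.35 ± 0.25, -0.17 ± 0.22 and -0.15 ± 0.22. Foxn1 marks thymic epithelium and Foxp3 regulatory T cells, and of 8 thymocyte and T cell markers 6 were dim. Foxf1, a gene of lung and vessel mesenchyme that the symbol rule did not take, had levels of 5.46 and 5.12 in Salv CKO, against 5.13 and 5.07 in Control. Foxa1, also chosen after its values were seen, had levels of 2.05 and 0.63 in Salv CKO, against 1.91 and 3.24 in Control, with a difference of -1.23 ± 0.67.

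The naming rule took 44 of the 70 members. Of the other 26, 17 were dim and 0 bright. Their differences ran from -1.23 in Foxa1, and otherwise from -0.33 in Foxk2, to 0.38 in Sox14, and 9 of the 26 lay above 0. The direction of Sox14 is not settled, since its other probe, also dim, gave -0.66 ± 0.56 (SE) and the mean over both probes was -0.142.

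The Control samples stood apart from each other in many members. Of the 41 members that were not dim, 31 had Control 1 above Control 2, or 75.6%, where the share among all genes that were not dim was 57.1%. All 12 bright members had Control 1 above Control 2, by 0.04 to 0.68. Control 1 held the highest level in 21 of the 41, against 41.1% of all genes that were not dim. By family this was so in 16 of 23 Fox genes, 4 of 12 Sox genes and 1 of 6 Tbx genes. The median of Control 1 minus Control 2 was 0.28 in the 41 members and 0.07 in all genes that were not dim. For Salv CKO 1 minus Salv CKO 2 these medians were -0.04 and -0.03. These shares are descriptions of 4 samples, and genes are not independent replicates.

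**Figure D4:**
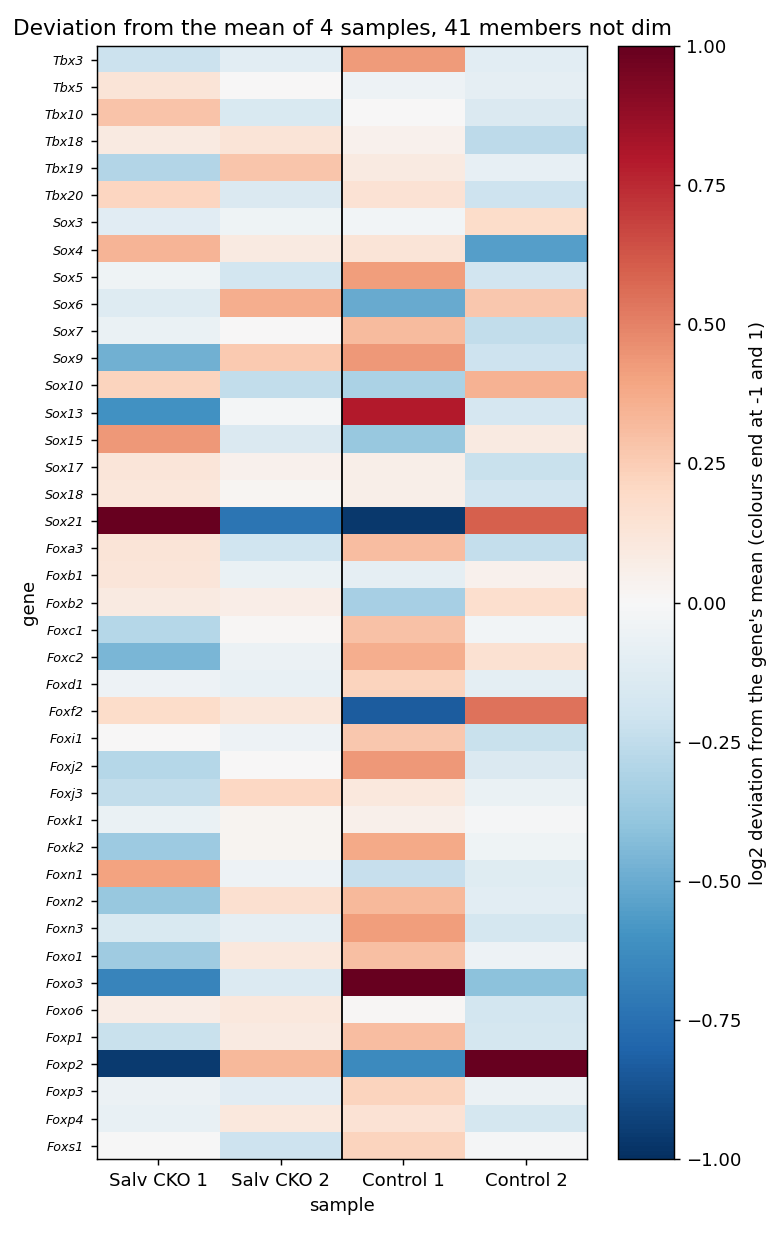
Level of each of the 41 members that were not dim, as its log2 deviation from its own mean over the 4 samples (columns), red above and blue below the mean, with colours ending at -1 and 1. A black line parts the Salv CKO samples from the controls. Most Fox rows are reddest in Control 1, and Sox21 is red in Salv CKO 1 and Control 2.

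Leaving out 1 sample showed how far the directions rested on single samples. The sign of the difference was kept without each sample in turn for 32 of the 70 members, and for 16 of the 41 that were not dim. Among the bright members it turned for Tbx20, Sox7, Foxj2, Foxn3 and Foxp1. Without Control 1, the median difference of the members was 0.001 and 35 of 70 were above 0. Without Control 2 it was -0.124, with 29 above 0.

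**Figure D5:**
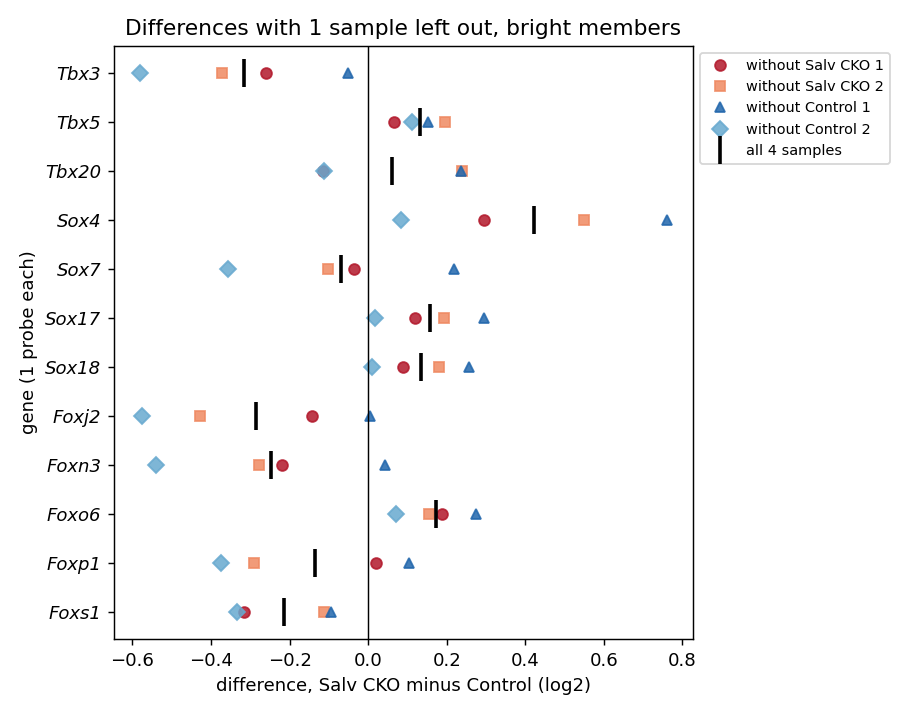
Difference, Salv CKO minus Control (log2), for the 12 bright members with all 4 samples (black bar) and with 1 sample left out (coloured points). Points lie on both sides of 0 for Tbx20, Sox7, Foxj2, Foxn3 and Foxp1, and on 1 side for Tbx3, Tbx5, Sox4, Sox17, Sox18, Foxo6 and Foxs1.

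Partners and targets of the cardiac T-box factors were read from another list. Of 16 measured genes 7 had a difference above 0, the median was -0.03, and limma called 0, with 0 at an unadjusted p under 0.05. Nppb, the B-type natriuretic peptide gene, had levels of 11.33 and 12.42 in Salv CKO, against 12.71 and 12.74 in Control, a difference of -0.85 ± 0.41 (SE). Salv CKO 1 was the low sample in Nppb. Hand2, a factor of the right ventricle and of sympathetic neurons, had levels of 10.59 and 10.68 in Salv CKO, against 10.37 and 9.74 in Control. Gata5 was dim and differed by -0.72 ± 0.37.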

How the data were processed

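The deposited values are intensities, whole numbers from -10 to 65474 on a linear scale for 26423 probes and 12 one-colour arrays, with 0 missing. Some are below 0. How the authors scanned, corrected for background or normalized these intensities is not given in the labels or files. Medians of single arrays lay between 58 and 88 and their 75th percentiles between 348 and 542, so they shared no common scale. The arrays were quantile normalized in limma 3.58.1 (R 4.3.3), values under the lowest positive one (0.0833) were set to it, log2(value + 1) was taken, and each sample's 3 technical arrays were averaged as 1 replicate. For dim probes the pseudocount shrinks log2 differences, while values near background scatter between technical arrays, so the size of their differences is uncertain. The number of samples limits the precision.

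Salv CKO was compared with Control by lmFit and eBayes, 2 samples against 2 (degrees of freedom 2 residual plus 2.6 prior), with two-sided p-values and Benjamini-Hochberg adjustment over all probes at 0.05. Intervals are 95% from the moderated spread. The procedure was run on simulated data as a check of the code. Its power for differences of the size seen here is not given, so a lack of calls does not show a lack of differences.

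Of the probes 20377 had 1 symbol and 6046 none in the platform annotation. Symbols were updated through RefSeq (GRCm38.p6), giving 17742 genes, 18213 probes by symbol, 2126 by synonym and 38 unmatched. A gene is given by its brightest probe (mean of all 12 arrays), and 6 members had a second probe. Promoters were searched on both strands for GGAATG.

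Members and lists were chosen with earlier results of these data known. Named with levels were the 8 highest-level genes of each family, the 10 members with the smallest p, the 6 with the largest SD that were not dim, those with both probes above the array median whose differences had opposite signs or lay over 1 apart, and genes of known roles in heart or vessels. Of each context list of partners and targets up to 3 genes with the smallest p were named. The labels number the samples 1 and 2 in both groups. Deviations from the group means of same-numbered samples correlated at -0.253 over probes. With so few samples a group this value cannot decide whether the numbers pair the samples, and the main fit took them as unpaired. Alternatives are given in the closing section. Figures were drawn with matplotlib 3.10.9.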

Additional observations from a re-analysis of the deposited data

How the results depend on the processing

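With 2 samples a group, limits come from the number of samples, and for the 29 dim members from signal near background. No normalization and the crossed replicate block were chosen after seeing the data. The count of called members stayed at 0 in every setting run. The count of called probes, 0, became 10 with median centring, 61 over 12 arrays with the sample as a random block and 11 without normalization. With the replicate block it was 0 (743 at an unadjusted p under 0.05, against 1047), and with the crossed replicate block 0 (1549). The replicate block changed no call. The 61 calls came from a fit over technical arrays of 4 samples, with 1 correlation (0.538) shared by all probes. For probes that vary more between samples than this allows, its p-values are too small. The members' median of -0.042 was -0.103 with median centring, 0.036 with 75th percentile scaling and 0.086 without normalization, where the medians of all genes were -0.108, 0.016 and 0.081. It ran from -0.124 to 0.001 with 1 sample left out. Over all 70 members, 59 kept their sign with median centring, 59 with 75th percentile scaling, 52 without normalization, 66 at a pseudocount of 16, 63 with the median of technical arrays and 32 with each sample left out in turn. The values below are limited to Sav1 and the 44 members the naming rule took, among which 56 values turned sign and 556 did not. The 556 include settings that cannot change a difference, only its SE or the probes fitted. These were the replicate block, the sample as a random block, an intensity trend in the spread and filters dropping the dimmest probes. The tally therefore does not measure how stable the directions are. With median centring those that turned were Sox18 (-0.051), Tbx1 (-0.166), Tbx5 (-0.056), Tbx19 (0.060) and Tbx20 (-0.123). With 75th percentile scaling they were Sox10 (0.060), Tbx19 (0.181) and Tbx20 (-0.003). Without normalization they were Foxi1 (0.012), Foxj3 (0.022), Foxk1 (0.039), Sox10 (0.128), Sox11 (0.016) and Tbx19 (0.249). At a pseudocount of 16 they were Tbx1 (-0.052) and Tbx19 (0.015). With the median of technical arrays they were Foxi1 (0.039), Sox11 (0.113), Tbx1 (-0.075) and Tbx19 (0.173), and with the mean over probes Tbx1 (-0.383), beside Sox14 (-0.142) outside the naming rule. The cause was not tested. With 1 sample left out, where the lone sample is assumed to vary like the other group, the differences of these genes that turned ran as follows. Sav1 ran from -0.459 to 0.213, Foxf2 from -0.389 to 0.978, Foxi1 from -0.294 to 0.195, Foxj2 from -0.576 to 0.005 and Foxj3 from -0.268 to 0.186. Foxk1 ran from -0.090 to 0.007, Foxn3 from -0.540 to 0.044, Foxo3 from -1.596 to 0.013, Foxp1 from -0.375 to 0.103, Foxp2 from -1.582 to 0.325 and Foxp4 from -0.123 to 0.188. Sox5 ran from -0.532 to 0.073, Sox6 from -0.151 to 0.623, Sox7 from -0.356 to 0.218, Sox9 from -0.590 to 0.142, Sox10 from -0.367 to 0.305 and Sox11 from -0.819 to 0.215. Sox15 ran from -0.004 to 0.575, Sox21 from -0.549 to 1.275, Tbx1 from -0.776 to 0.782, Tbx10 from -0.087 to 0.355, Tbx19 from -0.298 to 0.273 and Tbx20 from -0.116 to 0.240.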
